A study of Mus musculus with 6 samples.

Results

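The 38 genes described here encode enzymes and regulators of fatty acid and phospholipid synthesis, together with a lipid droplet protein and a fatty acid binding protein. They were taken by a list of gene symbols, with no threshold on a measured value, from the 23224 genes of the deposited count table. The list was chosen with earlier results of these data known, which limits the comparisons with all genes below. All 38 had a row and passed the filter on low counts, which kept 14416 genes for testing. They are described in 3 steps, with 13 genes of acyl synthesis, 9 of elongation and desaturation and 16 of the glycerolipid and choline branch.

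RNA-seq libraries of polyA RNA were made from mouse lung alveolar organoid cells with the genotype Sftpc-eGFP, which names the surfactant protein C gene and a green fluorescent protein. All cells were kept as organoids in FNHCS medium in drops of 90% matrigel before treatment, and each condition then lasted 7 days. The control condition stayed in 3D with FNHCS medium (3D FNHCS), the next was grown flat in the same medium (2D FNHCS), and the last was grown flat in Ad-DMEM F/12 medium to which 10% FBS was added (2D FBS). The cell lines SN3593 and SN3595 each gave 1 library to each condition, so every comparison set 2 libraries against 2. By their titles, the 3D FNHCS cultures stand for type II cells (AT2), which secrete surfactant, the 2D FBS cultures for type I cells (AT1), which are flat and exchange gas, and the 2D FNHCS cultures for both. Cells with and without eGFP are mentioned in the design text, but no source used here says whether cells were sorted on it, what FNHCS contains or whether the lines came from separate animals. The p-values therefore measure the spread between these lines and cultures, which may be technical. Between 2D FNHCS and 2D FBS the FNHCS medium was replaced and serum was added at once, and the parts of these changes cannot be told apart. Matrigel is given for the 3D FNHCS cultures and not for the flat ones. Flat growth and a change of matrix therefore cannot be told apart between 3D FNHCS and 2D FNHCS.

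Cells build fatty acids from cytosolic acetyl-CoA and NADPH, lengthen and desaturate the chains, and join them to glycerol to make phosphatidate, from which triacylglycerol and, with activated choline, phosphatidylcholine are made. Alveolar type 2 cells run this pathway at a high rate because surfactant is mostly phosphatidylcholine. The transcription factors SREBP-1 (Srebf1) and ChREBP (Mlxipl) are its best known activators.

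Each library held between 33634368 and 43334665 expected counts. The summed level of 10 AT2 markers lay between 52498 and 70166 CPM (counts scaled to a common library size, with TMM factors) in the 3D FNHCS libraries, between 49001 and 57108 in 2D FNHCS and between 922 and 1328 in 2D FBS. The sum of 10 AT1 markers moved the other way, from 2603 to 2949 CPM in 3D FNHCS through 5600.5 to 13352 in 2D FNHCS to 24696 to 24757 in 2D FBS. At the change to flat culture 6 AT2 markers fell and 3 AT1 markers rose, against 9.77% and 8.63% of all genes. There 2 of the AT2 markers had a log2 fold change above 0, and the AT2 median was -1.78. In 2D FBS against 2D FNHCS 7 AT2 markers fell and 1 AT1 marker rose, against 4.77% and 5.85% of all genes. The AT2 median was then -6.14. From 3D FNHCS to 2D FBS 10 AT2 markers fell and 7 AT1 markers rose, against 20.5% and 19.9% of all genes. In such bulk libraries, fewer cells of a type and less RNA per cell cannot be told apart, and the part of this shift in the values below was not tested. Of the markers of other cells, the sums reached at most 52.7 CPM for 12 fibroblast and lipofibroblast markers (Adipoq at 0), 1.84 CPM for 7 endothelial markers (Cldn5 at 0) and 46.6 CPM for 8 airway markers. The 10 macrophage and leukocyte markers summed to 121 to 1586 CPM in 3D FNHCS, 67.0 to 131 in 2D FNHCS and 10.5 to 26.0 in 2D FBS, nearly all of it Lyz2, which AT2 cells also express; the leukocyte gene Ptprc did not exceed 0.828 CPM. The 5 mesothelial markers summed to 4.9 to 12.3 CPM in 3D FNHCS, 7.02 to 307 in 2D FNHCS and 552 to 2142 in 2D FBS, almost all of it Msln, so that in 2D FBS they overlapped with the AT2 sum. Without TMM scaling the all-gene median of log2 fold changes moved from 0.03 to 0.19 in 2D FNHCS against 3D FNHCS and from -0.06 to -0.33 in 2D FBS against 2D FNHCS. The split of called genes then became 1885 higher and 1137 lower (1244 and 1408 with TMM) in the first comparison and 625 higher and 1474 lower (843 and 688 with TMM) in the second, where upper-quartile factors gave 701 and 915. Changes of the genes below are relative to these centres, and no called fold change of the 38 genes turned sign under any alternative scaling, tool or left-out library.

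In flat culture in the same medium, 14 of the 38 genes fell and 3 rose against 3D FNHCS, with 21 not called at an adjusted p of 0.05 (edgeR quasi-likelihood test with Benjamini-Hochberg adjustment over all genes tested). Over all genes tested, 9.77% were called lower and 8.63% higher. The genes that fell included the fatty acid synthase gene Fasn, Acacb, Acsl4, Mlxipl, Elovl6, Fads1 and Gpam, and those that rose were Fads3, Pcyt1a and Pcyt1b. The median log2 fold change was -0.76 over the 38 genes and 0.03 over all genes. In this comparison fewer genes were called when a single library was left out, each in turn here and below. Such a fit keeps fewer residual degrees of freedom, which cannot be told apart from a dependence on that library. The fit called 7 genes without the 3D FNHCS library of SN3593, 6 without that of SN3595, 10 without the 2D FNHCS library of SN3593, 7 without that of SN3595, and 13 without either 2D FBS library. Elovl6, Fads1 and Gpam were called in each of these fits, and none of the 3 rises was. With only the 4 libraries compared, 14 were called, all of them lower.

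Serum medium against FNHCS in flat culture brought 7 falls and no rise among the 38 genes, against 4.77% of all genes called lower and 5.85% called higher. The genes were Fasn, Acsl3, Srebf1, Scd1, Fads1, Fads2 and Chka. The median log2 fold change was -0.38 over the 38 genes and -0.06 over all genes. With the line as a block, 15 were called, 12 of them lower. With only the 4 libraries compared 4 were called, namely 3 of the 7 and a rise of Pcyt1b. None of the 7 calls held with every library left out in turn, and all were lost without either 2D FBS library. Leaving out a library of 2D FNHCS or 3D FNHCS lost some of the 7 calls. Some of these fits also called a rise of Pcyt1b or Fads3 that the main fit did not call.

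Between the end points, 2D FBS against 3D FNHCS, 22 of the 38 genes fell and 3 rose. Over all genes tested 40.5% were called, 20.5% lower and 19.9% higher. The median log2 fold change was -0.99 over the 38 genes and -0.03 over all genes. Of the 25 calls, 18 held with each library left out in turn, and 18 were the fewest calls, without the 2D FBS library of SN3593. This comparison shares its libraries with the other comparisons, so their values are given side by side and not as separate evidence. By the condition means, called or not, 19 genes were lower at each step from 3D FNHCS through 2D FNHCS to 2D FBS, 6 were higher at each, 9 were lowest in 2D FNHCS and 4 were highest there.

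By step, acyl synthesis held 6 falls of 13 genes in 2D FNHCS against 3D FNHCS, 3 in 2D FBS against 2D FNHCS and 11 in 2D FBS against 3D FNHCS, with no rise in any. Elongation and desaturation held 3, 3 and 5 falls of 9 genes in the same order, with a rise of Fads3 in the first and the last. The glycerolipid and choline branch held 5, 1 and 6 falls of 16 genes and 2, 0 and 2 rises. Over all genes tested, 9.77%, 4.77% and 20.5% were called lower in this order, and 8.63%, 5.85% and 19.9% higher. The shares called lower were 46.2%, 23.1% and 84.6% in acyl synthesis and 33.3%, 33.3% and 55.6% in elongation and desaturation. The glycerolipid and choline branch had 31.25%, 6.25% and 37.5%, the second near that of all genes. Its rises made 12.5%, 0% and 12.5%, the first near the share of all genes and the others below it. The median log2 fold change of 2D FBS against 3D FNHCS was -1.88 in acyl synthesis, -2.19 in elongation and desaturation and -0.10 in the glycerolipid and choline branch. The difference between the steps was not tested.

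**Figure D1:**
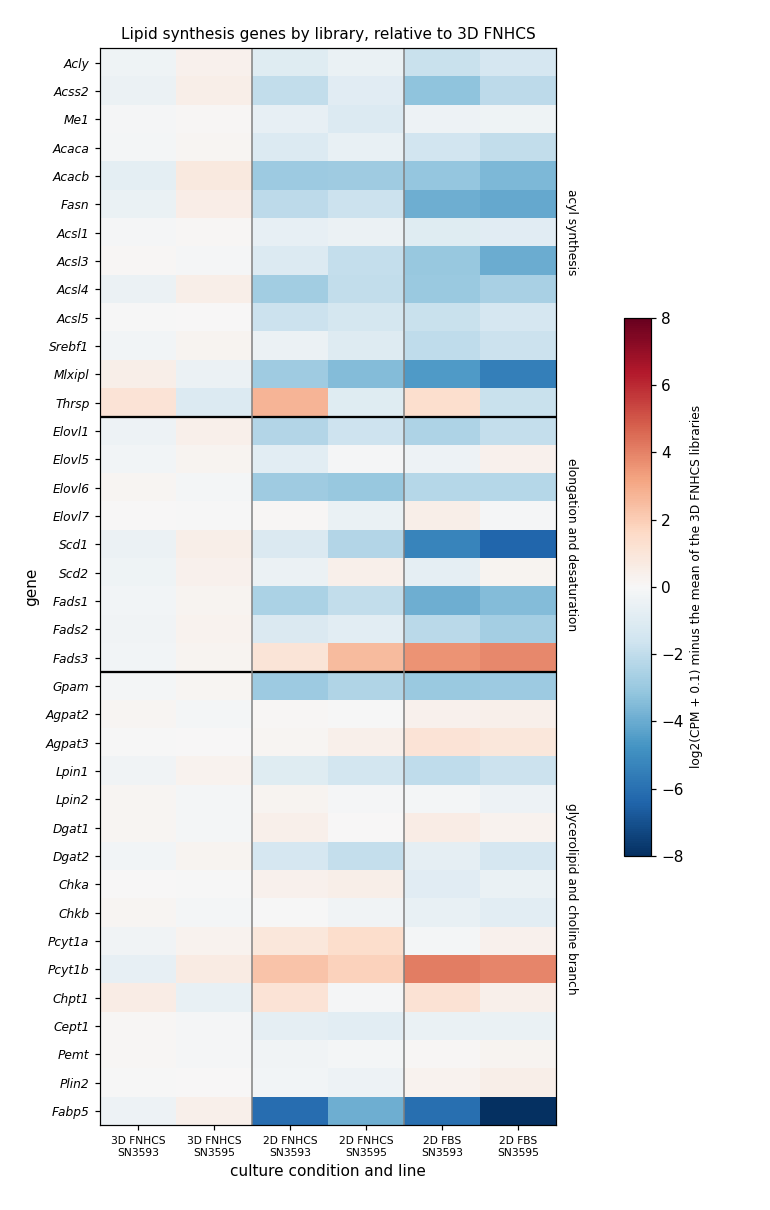
Colours show log2(CPM + 0.1) of the 38 genes (rows, grouped by step) in the 6 libraries (columns, 2 lines in each of 3 conditions), minus the mean of the 2 3D FNHCS libraries. Blue is lower and red is higher than 3D FNHCS. Most rows of acyl synthesis turn blue toward 2D FBS, while Fads3 and Pcyt1b turn red and Scd2, Elovl5 and Lpin2 stay pale.

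**Figure D2:**
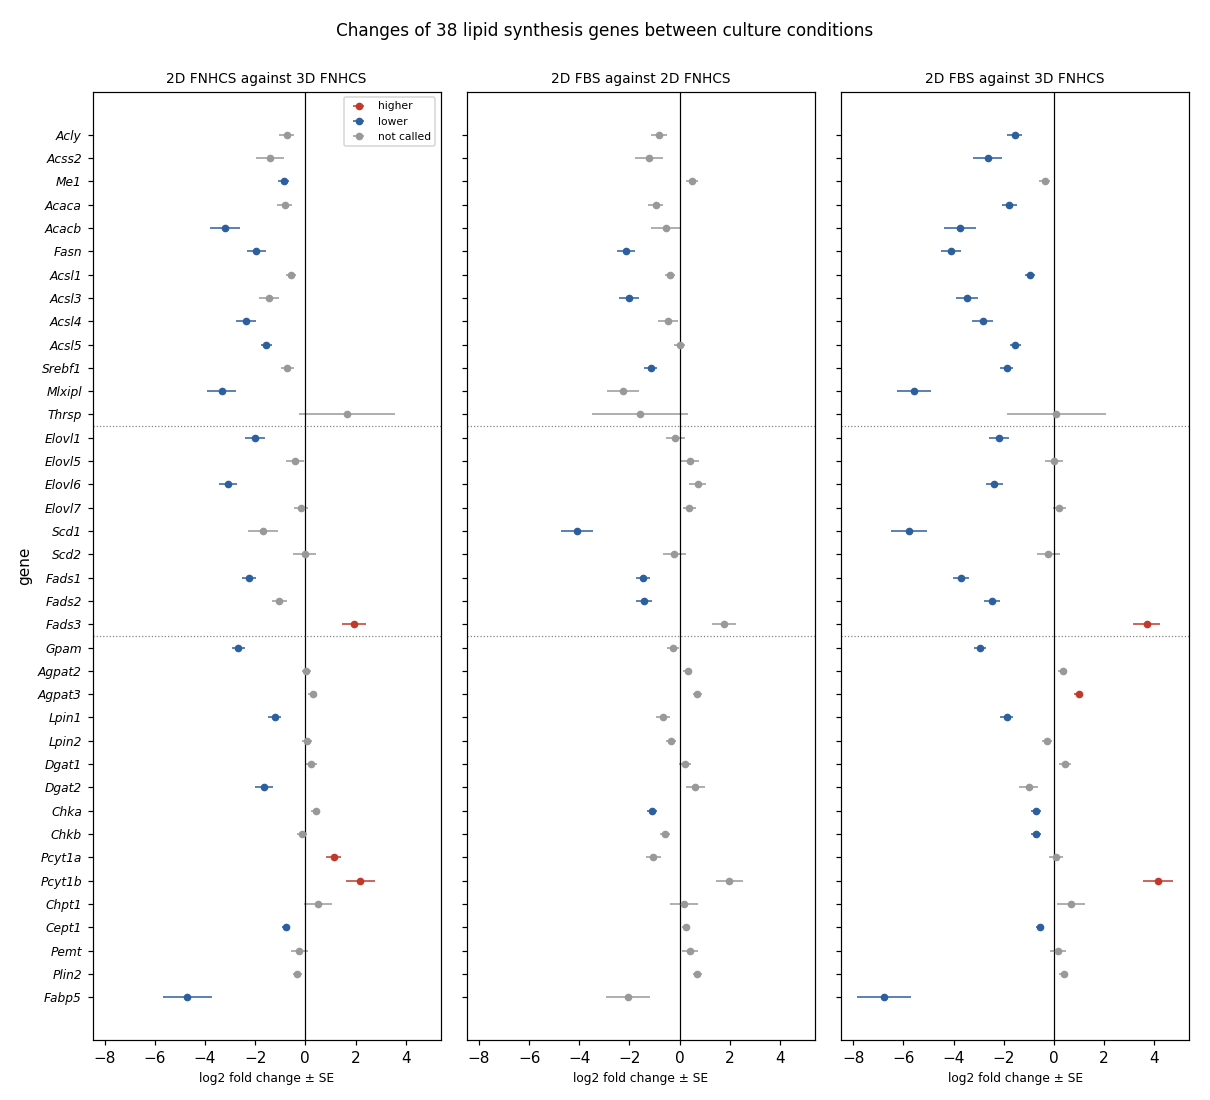
Points give the log2 fold change of the 38 genes in the 3 comparisons of conditions, with bars of 1 SE from the fit over all 6 libraries. Coloured points passed the adjusted p of 0.05. In 2D FBS against 3D FNHCS 22 genes were called lower, with Fabp5, Scd1 and Mlxipl farthest to the left.

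Values are given below as CPM in the order SN3593, SN3595. CPM are not divided by gene length and are compared between libraries only, not between genes. Each SE is that of a log2 fold change, 2D FNHCS against 3D FNHCS is called the flat step and 2D FBS against 2D FNHCS the serum step. The supply of acetyl-CoA and NADPH is carried by 3 genes. Acly, which splits citrate into cytosolic acetyl-CoA, stood at 312 and 483 CPM in 3D FNHCS, then 203 and 273 in 2D FNHCS and then 115 and 154 in 2D FBS. Each condition's libraries lay below those of the condition before, and the level in 2D FBS was 2.95-fold below 3D FNHCS (log2 fold change -1.56, SE 0.31, adjusted p = 0.00976). Neither single step was called (adjusted p = 0.133 and 0.132), while both were with the line as a block (adjusted p = 0.0259 and 0.0269).

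Acss2, which makes acetyl-CoA from acetate, ran at 31.6 and 62.2 CPM in 3D FNHCS, then 11.5 and 23.7 in 2D FNHCS and then 4.6 and 10.5 in 2D FBS. The SN3595 library was the higher of the pair in every condition, and libraries of different conditions did not overlap. Its log2 fold change from 3D FNHCS to 2D FBS was -2.63 (SE 0.57, adjusted p = 0.014), and both single steps were called with the line as a block (adjusted p = 0.00523 for 2D FNHCS against 3D FNHCS and 0.0104 for 2D FBS against 2D FNHCS). Me1, the cytosolic malic enzyme that yields NADPH, had its lowest level in 2D FNHCS, with 589 and 689 CPM in 3D FNHCS, then 398 and 302 in 2D FNHCS and then 476 and 512 in 2D FBS. It fell by 0.87 on the log2 scale in 2D FNHCS against 3D FNHCS (SE 0.23, adjusted p = 0.0465), a call lost in every fit that left out a library and without TMM scaling, and was not called in 2D FBS against 3D FNHCS (log2 fold change -0.37, adjusted p = 0.234). Without the 2D FBS library of SN3593 the call of Acly from 3D FNHCS to 2D FBS was lost (adjusted p = 0.0626), and that of Acss2 was lost without the same library or without the 3D FNHCS library of SN3595 (giving adjusted p = 0.0655 and 0.0622).

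The carboxylases and the synthase that commit acetyl-CoA to fatty acid all fell between the end points. Acaca, the carboxylase that makes malonyl-CoA in the cytosol, stood at 14.5 and 18.5 CPM in 3D FNHCS, then 7.59 and 11 in 2D FNHCS and then 5.55 and 4.13 in 2D FBS. Its libraries did not overlap between any conditions, and the level fell by 1.77 on the log2 scale from 3D FNHCS to 2D FBS (SE 0.31, adjusted p = 0.00659). Acacb, whose malonyl-CoA restrains fatty acid entry into mitochondria, was already low in flat FNHCS culture, with 3.57 and 10.3 CPM in 3D FNHCS, then 0.725 and 0.774 in 2D FNHCS and then 0.632 and 0.405 in 2D FBS. It fell by 3.20 in 2D FNHCS against 3D FNHCS (SE 0.61, adjusted p = 0.0202), and the further change to 2D FBS was -0.53 (adjusted p = 0.581).

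Fasn, which assembles palmitate, was 1 of 2 genes called lower in all 3 comparisons. It stood at 642 and 1319 CPM in 3D FNHCS, then 220.0 and 283 in 2D FNHCS and then 60.8 and 53.5 in 2D FBS. The lowest 3D FNHCS library was above both 2D FNHCS libraries, and these were above both 2D FBS libraries. Fasn fell 3.9-fold at the flat step (log2 fold change -1.96, SE 0.37, adjusted p = 0.0205), 4.4-fold at the serum step (-2.14, SE 0.38, adjusted p = 0.0245) and 17.2-fold between the end points (-4.10, SE 0.41, adjusted p = 0.00153). The calls of Acacb and Fasn at the flat step were lost without the 3D FNHCS library of SN3595 (giving adjusted p = 0.0863 and 0.054), the 2D FNHCS library of SN3593 (0.0645 and 0.0681) or the 2D FNHCS library of SN3595 (0.0735 and 0.0561). The serum-step call of Fasn was lost when any 1 library of 2D FNHCS or 2D FBS was left out (adjusted p from 0.0503 to 0.13), while the calls of all 3 genes between the end points held with each library left out.

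The 4 acyl-CoA ligases, which activate long-chain fatty acids, each fell between the end points, at different steps. Acsl4, which prefers arachidonate, dropped with flat culture, from 362 and 672 CPM in 3D FNHCS to 73.1 and 128 in 2D FNHCS and then 62.7 and 81.9 in 2D FBS. Its log2 fold change was -2.36 at the flat step (SE 0.41, adjusted p = 0.0162) and -0.48 at the serum step (adjusted p = 0.451), where the libraries overlapped. Acsl5 likewise went from 468 and 471 CPM to 145 and 175 and then 139 and 183, a log2 fold change of -1.55 (SE 0.22, adjusted p = 0.00997) followed by 0.01 (adjusted p = 0.987). The direction of that last value turned in 5 of 14 alternative settings.

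Acsl3, an enzyme of the endoplasmic reticulum and lipid droplets, had lower values at each step, with 121 and 110.4 CPM in 3D FNHCS, then 55.1 and 30.2 in 2D FNHCS and then 13.8 and 7.22 in 2D FBS. The serum step was called (log2 fold change -2.02, SE 0.40, adjusted p = 0.0324). The flat step was not called in the unpaired edgeR fit (log2 fold change -1.44, adjusted p = 0.0508). It was called with the line as a block (adjusted p = 0.0115), by DESeq2 and limma-voom, without the filter on low counts and with only the 4 libraries compared. Between the end points Acsl3 fell 11-fold (SE 0.42, adjusted p = 0.00242). Acsl1 showed the smallest change of the 4, from 19.3 and 22.5 CPM in 3D FNHCS to 10.5 and 10.9 in 2D FBS (log2 fold change -0.97, SE 0.20, adjusted p = 0.012). Some of these calls were lost in fits that left out a library. At the flat step Acsl4 was lost without the 3D FNHCS library of SN3595 and Acsl5 without that of SN3593. The log2 fold change of Acsl5 there stayed between -1.69 and -1.40 in all 14 alternatives. Acsl3 at the serum step held in 1 of 6 fits, that without the 2D FNHCS library of SN3595. The end-point call of Acsl1 was lost without the 3D FNHCS library of SN3595 or either 2D FBS library (adjusted p from 0.0605 to 0.0673).

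Of the regulators, Srebf1, the gene of SREBP-1, stood at 189.7 and 257 CPM in 3D FNHCS, then 159 and 110.1 in 2D FNHCS and then 55.1 and 65.9 in 2D FBS. Its libraries did not overlap between conditions. It was called at the serum step (log2 fold change -1.15, SE 0.26, adjusted p = 0.0441) and between the end points (-1.88, SE 0.27, adjusted p = 0.00357), and the flat step was not called (-0.73, adjusted p = 0.0994). The serum-step call held in 1 of the 6 fits that left out a library, the fit without the 2D FNHCS library of SN3595. Mlxipl, the gene of ChREBP, had 12.1 and 6.52 CPM in 3D FNHCS, then 1.14 and 0.704 in 2D FNHCS and then 0.287 and 0.101 in 2D FBS. The 2D FBS values correspond to 10 and 4 counts. Mlxipl fell 10.1-fold at the flat step (SE 0.57, adjusted p = 0.0158) and 47.7-fold between the end points (SE 0.67, adjusted p = 0.00228), and the serum step was called with the line as a block (log2 fold change -2.24, adjusted p = 0.0744 without and 0.0214 with the block). The flat-step call was lost without the 3D FNHCS library of SN3593 or the 2D FNHCS library of SN3595 (giving adjusted p = 0.0827 and 0.0603).

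Thrsp, whose protein is tied to lipogenesis in rodent liver, had its libraries set apart by line in every condition. The SN3593 libraries had 0.634, 2.15 and 0.747 CPM in 3D FNHCS, 2D FNHCS and 2D FBS, and the SN3595 libraries 0.0567, 0.0704 and 0 CPM, where a count of 0 allows up to 0.076 CPM. These are 131 counts in SN3593 and 5 in SN3595, a ratio of 29.5 with an exact 95% interval of 12.3 to 92.3 that covers counting error only. Thrsp was not called by edgeR in any comparison, the lines included (adjusted p = 0.127).

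The promoter windows of Fasn and Mlxipl are shown because Fasn was called lower in all 3 comparisons and Mlxipl had the lowest log2 fold change of the acyl synthesis genes between the end points. Each window runs from 250 bases before to 50 after a transcription start of RefSeq, build GRCm38.p6, on chromosomes 11 (minus strand, chr11:120824498-120824797) and 5 (plus strand, chr5:135106641-135106940), and is printed 5′ to 3′ on the gene's strand. Capitals mark matches, on either strand, to a form of the sterol regulatory element bound by SREBP (TCACNCCAC), the CCAAT box (CCAAT), the E-box CACGTG and the GC box (GGGCGG). Overlapping matches were each counted, and the Mlxipl window is the 1 of its 2 that held the sterol element form.
Fasn: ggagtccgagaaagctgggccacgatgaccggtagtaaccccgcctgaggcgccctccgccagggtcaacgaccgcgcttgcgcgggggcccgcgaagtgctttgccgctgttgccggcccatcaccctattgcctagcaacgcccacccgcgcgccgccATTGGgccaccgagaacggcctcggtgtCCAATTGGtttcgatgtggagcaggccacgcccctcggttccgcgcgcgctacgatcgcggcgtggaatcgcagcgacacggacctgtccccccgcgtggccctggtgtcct
Mlxipl: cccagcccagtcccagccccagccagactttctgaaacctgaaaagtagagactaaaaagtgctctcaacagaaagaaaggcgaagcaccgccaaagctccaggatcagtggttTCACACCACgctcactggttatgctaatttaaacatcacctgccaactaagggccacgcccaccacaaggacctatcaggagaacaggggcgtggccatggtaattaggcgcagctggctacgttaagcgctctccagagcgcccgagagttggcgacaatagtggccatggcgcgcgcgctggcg
The Fasn window held 3 CCAAT boxes, 2 of which overlap in a single run of capitals, and the printed Mlxipl window held 1 match to the sterol element form. The other Mlxipl window held a CCAAT box, an E-box and a GC box, so the printed window does not stand for both. Among all 32851 windows of the table, 1.242% held that form, 37.41% a CCAAT box, 7.15% the E-box and 35.66% a GC box. The 47 windows of the 32 genes with an entry held them at 8.511%, 53.19%, 8.511% and 55.32%, and the sterol element form was found for Mlxipl, Acsl1 and Pcyt1a. Windows of Scd1, Scd2, Fads1, Fabp5, Dgat1 and Dgat2 were not used here. A match describes letters and shows no binding, and the lack of one says only that these letters are not in the window.

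**Figure D3:**
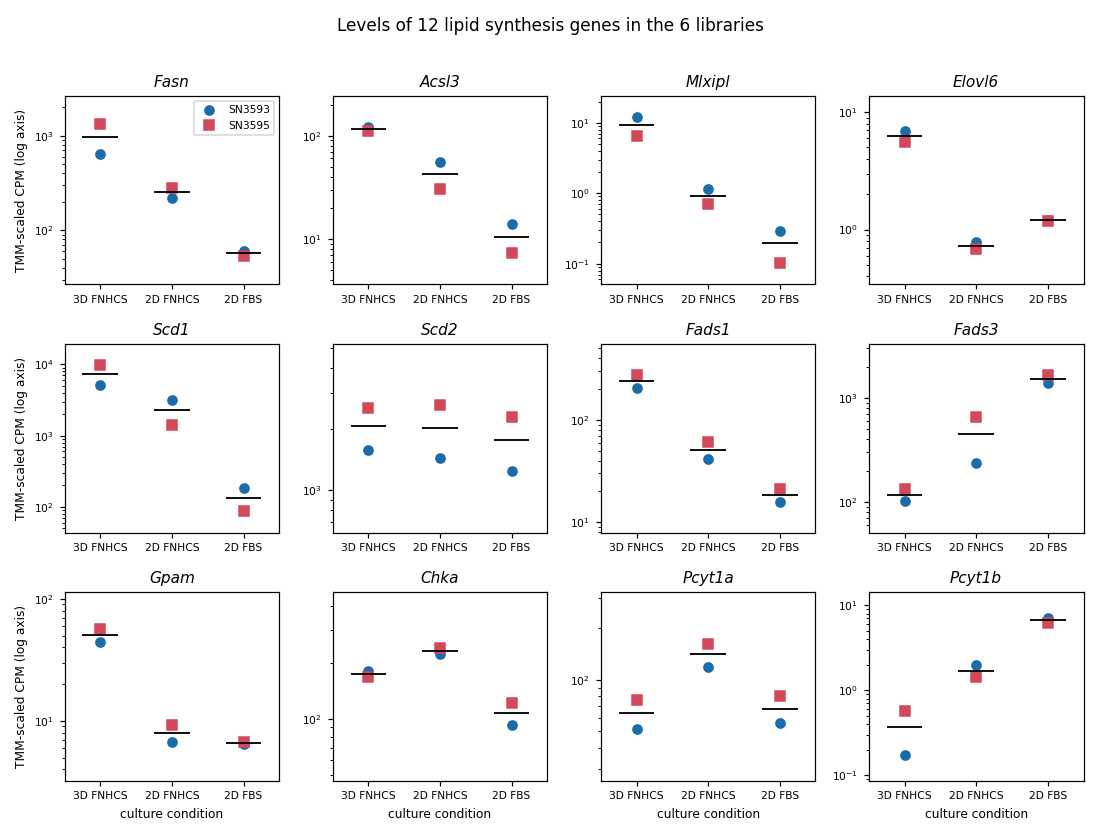
TMM-scaled CPM of 12 genes of the 3 steps on a log axis, by culture condition, with circles for SN3593, squares for SN3595 and a line at the mean of the 2 libraries. Fasn, Acsl3, Mlxipl, Scd1 and Fads1 descend from 3D FNHCS to 2D FBS, Fads3 and Pcyt1b climb, the Scd2 libraries overlap between conditions, and Chka and Pcyt1a are highest in 2D FNHCS.

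The elongases and the stearoyl-CoA desaturases each held genes that were called and genes that were not. Elovl6, which lengthens palmitate to stearate, stood at 6.88 and 5.56 CPM in 3D FNHCS, then 0.777 and 0.681 in 2D FNHCS and then 1.21 and 1.19 in 2D FBS. Both flat conditions lay below both 3D FNHCS libraries without overlap, and Elovl6 fell 8.51-fold at the flat step (log2 fold change -3.09, SE 0.36, adjusted p = 0.00695), a call that held with each library left out. The serum step was 0.72 (adjusted p = 0.227). Elovl1, an elongase of saturated very long chains, went from 724 and 1259 CPM in 3D FNHCS to 191 and 299 in 2D FNHCS and then 176 and 258 in 2D FBS. Its fall was 2.02 on the log2 scale at the flat step (SE 0.39, adjusted p = 0.021) and 2.19 between the end points (SE 0.39, adjusted p = 0.00737).

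Elovl5, an elongase of polyunsaturated chains, was not called in any comparison of conditions and had overlapping libraries throughout, with 166 and 218 CPM in 3D FNHCS, then 105 and 180.1 in 2D FNHCS and then 143 and 240.2 in 2D FBS. Elovl7 was not called either, and its 6 libraries lay between 33.8 and 66.5 CPM. The flat-step call of Elovl1 was lost without the 3D FNHCS library of SN3595 or the 2D FNHCS library of SN3593 (giving adjusted p = 0.0814 and 0.0651), and its end-point call without the 2D FBS library of SN3593 (0.0502).

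Scd1 and Scd2 encode stearoyl-CoA desaturases, which introduce the first double bond. Scd1 stood at 5138 and 9694 CPM in 3D FNHCS, then 3181 and 1396 in 2D FNHCS and then 183 and 86.9 in 2D FBS. All libraries of each condition lay below those of the condition before, and the 2D FBS libraries lay far below the rest. Scd1 fell 16.9-fold at the serum step (log2 fold change -4.08, SE 0.65, adjusted p = 0.0197) and 54.9-fold between the end points (-5.78, SE 0.70, adjusted p = 0.00238). The flat step was not called in the unpaired edgeR fit (-1.70, adjusted p = 0.093) and was called by DESeq2, and the log2 differences there were -0.69 in SN3593 and -2.80 in SN3595. The serum-step call was lost without either 2D FBS library (adjusted p = 0.0832 without SN3593 and 0.0888 without SN3595).

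Scd2 was not called in any comparison of conditions, with 1586 and 2554 CPM in 3D FNHCS, then 1446 and 2628 in 2D FNHCS and then 1238 and 2297 in 2D FBS and with overlap between all conditions. Its SN3595 library was the higher in each condition. The log2 ratio of Scd1 to Scd2 counts within a library was 1.70 and 1.92 in 3D FNHCS, then 1.14 and -0.91 in 2D FNHCS and then -2.75 and -4.72 in 2D FBS. Expected counts share reads between close relatives by a model, so the split between Scd1 and Scd2 carries that uncertainty. The ratio shows that the genes changed unequally and not that Scd2 was constant.

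The front-end desaturase genes Fads1 and Fads2, which act in polyunsaturated fatty acid synthesis, fell, while their relative Fads3, which desaturates sphingoid bases, rose. Fads1 stood at 205 and 275 CPM in 3D FNHCS, then 41.2 and 60.2 in 2D FNHCS and then 15.9 and 21 in 2D FBS. Libraries of different conditions did not overlap, and Fads1 was called lower in all 3 comparisons, 4.73-fold at the flat step (SE 0.28, adjusted p = 0.00843), 2.75-fold at the serum step (SE 0.28, adjusted p = 0.0296) and 13-fold between the end points (SE 0.30, adjusted p = 0.00107). The flat and end-point calls held with each library left out, and the serum-step call was lost without the 2D FNHCS library of SN3595 or either 2D FBS library (adjusted p from 0.0632 to 0.158).

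Fads2 had 31.8 and 48.8 CPM in 3D FNHCS, then 17.4 and 21.8 in 2D FNHCS and then 8.85 and 5.82 in 2D FBS. It was called at the serum step (log2 fold change -1.42, SE 0.31, adjusted p = 0.0404), a call lost in each of the 6 fits that left out a library and with limma-voom, and between the end points (-2.46, SE 0.32, adjusted p = 0.00279), a call that held in all of them. Fads3 went the other way, with 102 and 133 CPM in 3D FNHCS, then 238 and 662 in 2D FNHCS and then 1396 and 1654 in 2D FBS. The 2D FNHCS library of SN3595 was well above that of SN3593, and no libraries overlapped between conditions. Fads3 rose 13-fold between the end points (log2 fold change 3.70, SE 0.52, adjusted p = 0.00355) and 3.82-fold at the flat step (SE 0.49, adjusted p = 0.0424), and the serum step was called with the line as a block (adjusted p = 0.0703 without and 0.0266 with the block). The flat-step rise was lost in 5 of the 6 fits that left out a library (adjusted p from 0.0746 to 0.192) and held without the 2D FNHCS library of SN3593.

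The log2 ratio of Fads1 to Fads3 counts within a library went from 1.004 and 1.049 in 3D FNHCS through -2.53 and -3.46 in 2D FNHCS to -6.46 and -6.29 in 2D FBS. The Fads3 window is shown because Fads3 was the only gene of elongation and desaturation that rose. It lies on the plus strand of chromosome 19 (GRCm38.p6, chr19:10041298-10041597), with capitals as above.
Fads3: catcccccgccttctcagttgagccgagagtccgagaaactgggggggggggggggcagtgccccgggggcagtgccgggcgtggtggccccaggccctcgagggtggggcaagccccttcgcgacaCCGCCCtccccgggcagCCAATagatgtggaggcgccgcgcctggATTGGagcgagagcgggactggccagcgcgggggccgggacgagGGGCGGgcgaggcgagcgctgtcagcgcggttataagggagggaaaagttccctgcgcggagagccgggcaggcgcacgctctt
It held 2 CCAAT boxes and 2 GC boxes, and no match to the sterol element form or the E-box.

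The glycerolipid branch starts with the acylation of glycerol 3-phosphate. Gpam, the mitochondrial enzyme that acylates glycerol 3-phosphate, stood at 44.5 and 56.9 CPM in 3D FNHCS, then 6.65 and 9.32 in 2D FNHCS and then 6.46 and 6.74 in 2D FBS. Both flat conditions lay below both 3D FNHCS libraries, and the flat conditions overlapped with each other. Gpam fell 6.35-fold at the flat step (log2 fold change -2.67, SE 0.25, adjusted p = 0.0044) and 7.68-fold between the end points (-2.94, SE 0.25, adjusted p = 0.0011), and both calls held with each library left out. The serum step was -0.28 (adjusted p = 0.468).

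Agpat3, an acyltransferase for lysophosphatidate, rose between the end points, from 85.3 and 88.3 CPM in 3D FNHCS to 96.8 and 116 in 2D FNHCS and then 183 and 164 in 2D FBS (log2 fold change 0.9996, SE 0.18, adjusted p = 0.00715). Its serum step was called with the line as a block (log2 fold change 0.70, adjusted p = 0.0567 without and 0.0393 with the block). Agpat2 was not called in any comparison and lay between 24 and 34.5 CPM in the 6 libraries. Lpin1, a phosphatidate phosphatase that makes diacylglycerol, had 37.5 and 55.2 CPM in 3D FNHCS, then 23 and 16.7 in 2D FNHCS and then 11.3 and 13.8 in 2D FBS without overlap between conditions. It fell by 1.22 on the log2 scale at the flat step (SE 0.27, adjusted p = 0.0295) and by 1.89 between the end points (SE 0.28, adjusted p = 0.0039). The flat-step call held in 1 of the 6 fits that left out a library, the fit without the 2D FNHCS library of SN3593. Its relative Lpin2 was not called, and ranged from 100.02 to 149.7 CPM.

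The final acylation to triacylglycerol is made by Dgat1 and Dgat2. Dgat2 had 7.86 and 10.2 CPM in 3D FNHCS, then 3.42 and 2.37 in 2D FNHCS and then 5.49 and 3.49 in 2D FBS. It fell 3.13-fold at the flat step (SE 0.37, adjusted p = 0.0309) and was not called between the end points in the unpaired edgeR fit (log2 fold change -1.01, adjusted p = 0.0672), while the line as a block (0.0499), DESeq2 and limma-voom called it lower. Dgat1 had 33.8 and 26.7 CPM in 3D FNHCS, then 40.6 and 30.2 in 2D FNHCS and then 45.3 and 37.2 in 2D FBS, and was called between the end points with the line as a block (log2 fold change 0.45, adjusted p = 0.16 without and 0.0331 with the block). The flat-step call of Dgat2 was lost when any 1 library of 3D FNHCS or 2D FNHCS was left out (adjusted p from 0.0516 to 0.131).

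Genes of the choline branch were called in both directions. Chka, a choline kinase of the first step, had its highest values in flat FNHCS culture, with 179 and 168 CPM in 3D FNHCS, then 222 and 239 in 2D FNHCS and then 93 and 121 in 2D FBS. Both 2D FBS libraries lay below all others, and Chka fell by 1.11 on the log2 scale at the serum step (SE 0.20, adjusted p = 0.0248) and by 0.70 between the end points (SE 0.20, adjusted p = 0.0319), while the flat step was 0.41 (adjusted p = 0.189). Chkb, the other choline kinase, had 46.1 and 37.1 CPM in 3D FNHCS, then 41 and 34.1 in 2D FNHCS and then 27.7 and 22.8 in 2D FBS and fell by 0.72 between the end points (SE 0.20, adjusted p = 0.0323). Its serum step was called with the line as a block (adjusted p = 0.123 without and 0.035 with the block). The serum-step call of Chka was lost in each of the 6 fits that left out a library (adjusted p from 0.0527 to 0.135), and the end-point calls of both kinases were lost when any 1 library of 3D FNHCS or 2D FBS was left out.

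Pcyt1a and Pcyt1b encode the CTP:phosphocholine transferases that set the rate of phosphatidylcholine synthesis. Pcyt1a, the more widely expressed form, was also highest in 2D FNHCS, with 51.3 and 76.3 CPM in 3D FNHCS, then 118 and 163 in 2D FNHCS and then 55.7 and 79.9 in 2D FBS. Both 2D FNHCS libraries were above all others, and the 3D FNHCS and 2D FBS libraries overlapped. Pcyt1a rose 2.2-fold at the flat step (log2 fold change 1.14, SE 0.30, adjusted p = 0.0464), and its lower level after the serum step was called with the line as a block (log2 fold change -1.05, adjusted p = 0.0749 without and 0.0109 with the block). The end points differed by 0.09 (adjusted p = 0.835), a value whose sign turned in 4 of 14 alternative settings. The flat-step rise was lost in each of the 6 fits that left out a library (adjusted p from 0.0518 to 0.201).

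Pcyt1b, the other form, was at a low level in 3D FNHCS and rose, with 0.173 and 0.567 CPM in 3D FNHCS, then 1.97 and 1.43 in 2D FNHCS and then 7.15 and 6.25 in 2D FBS. The 3D FNHCS values correspond to 6 and 20 counts. The libraries of the conditions did not overlap. The rise was 4.17 on the log2 scale between the end points (SE 0.60, adjusted p = 0.00375), which held with each library left out, and 2.19 at the flat step (SE 0.57, adjusted p = 0.047). The flat-step rise held in 1 of the 6 fits that left out a library, the fit without the 3D FNHCS library of SN3595, and was lost with upper-quartile factors. At the serum step Pcyt1b was not called in the unpaired edgeR fit (log2 fold change 1.98, adjusted p = 0.0667), while 5 of 14 alternatives called it higher, namely DESeq2, limma-voom, the fits without either 3D FNHCS library and the fit to only the 4 libraries compared.

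The last step of the choline branch is shared by Cept1 and Chpt1, which transfer phosphocholine to diacylglycerol. Cept1 fell at the flat step, from 88.9 and 79.2 CPM in 3D FNHCS to 51.8 and 45.8 in 2D FNHCS, and stood at 57.9 and 57.1 in 2D FBS. The fall was 0.78 on the log2 scale at the flat step (SE 0.16, adjusted p = 0.0234) and 0.55 between the end points (SE 0.16, adjusted p = 0.0349). Chpt1 had a lower SN3595 library in every condition and overlap between all conditions, with 164 and 69.5 CPM in 3D FNHCS, then 232 and 98.2 in 2D FNHCS and then 235 and 142 in 2D FBS, and was called between the end points with the line as a block (log2 fold change 0.69, adjusted p = 0.359 without and 0.0207 with the block). Pemt, which makes phosphatidylcholine by methylation and is best known from liver, was not called and lay between 2.28 and 3.34 CPM. Both Cept1 calls were lost without either 3D FNHCS library, the flat-step call also without the 2D FNHCS library of SN3595, and the end-point call without either 2D FBS library or without the filter on low counts.

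Promoter windows of Gpam and Pcyt1a are shown because these genes moved in opposite directions at the flat step. The Gpam window lies on the minus strand of chromosome 19 (chr19:55127189-55127488) and the Pcyt1a window on the plus strand of chromosome 16 (chr16:32430671-32430970), both in GRCm38.p6 and with capitals as above. Pcyt1a has 3 windows in the table and Gpam 2. The window of Pcyt1a that held the sterol element form is the one printed.
Gpam: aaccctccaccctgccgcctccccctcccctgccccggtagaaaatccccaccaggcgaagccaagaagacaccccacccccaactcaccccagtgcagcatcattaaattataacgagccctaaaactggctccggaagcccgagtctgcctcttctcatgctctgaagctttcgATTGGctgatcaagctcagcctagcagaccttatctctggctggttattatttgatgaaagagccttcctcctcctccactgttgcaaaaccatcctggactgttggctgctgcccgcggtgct
Pcyt1a: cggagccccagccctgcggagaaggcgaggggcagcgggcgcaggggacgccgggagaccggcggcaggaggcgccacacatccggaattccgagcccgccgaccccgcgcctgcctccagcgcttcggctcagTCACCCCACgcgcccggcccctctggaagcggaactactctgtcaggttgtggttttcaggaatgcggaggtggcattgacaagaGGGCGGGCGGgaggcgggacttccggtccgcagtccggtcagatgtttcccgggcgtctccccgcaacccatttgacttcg
The printed Gpam window held 1 CCAAT box and no GC box, while the other Gpam window held a GC box. The printed windows therefore do not stand for all windows of these genes. The Pcyt1a window held 1 match to the sterol element form and 2 overlapping GC boxes.

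Of the storage and binding genes, Plin2, which coats lipid droplets, was not called in the unpaired edgeR fit, with 179 and 181 CPM in 3D FNHCS, then 153 and 135 in 2D FNHCS and then 216 and 254 in 2D FBS. Its 2D FBS libraries were above all others, and the serum step was called with the line as a block (log2 fold change 0.71, adjusted p = 0.0597 without and 0.043 with the block). Fabp5, a carrier of fatty acids in epithelia and other tissues, changed most of all 38 genes in the 2 comparisons with 3D FNHCS. It stood at 724 and 1263 CPM in 3D FNHCS, then 14 and 62.3 in 2D FNHCS and then 14.6 and 3.65 in 2D FBS. Both flat conditions lay far below 3D FNHCS and overlapped with each other. Fabp5 fell 26-fold at the flat step (log2 fold change -4.70, SE 0.98, adjusted p = 0.0254) and 109-fold between the end points (-6.77, SE 1.08, adjusted p = 0.00511). At the serum step the log2 differences were 0.06 in SN3593 and -4.08 in SN3595, and the mean change was not called (-2.07, adjusted p = 0.18). The flat-step call was lost without either 3D FNHCS library or the 2D FNHCS library of SN3593 (giving adjusted p from 0.0511 to 0.0843), and the end-point call held with each library left out.

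The lines SN3595 and SN3593 were compared across the 3 conditions. None of the 38 genes was called (edgeR quasi-likelihood test), against 0.00694% of all genes, and limma-voom also called none. At an unadjusted p of 0.05, 15 of the 38 passed, against 18.6% of all genes. DESeq2 called 10, of which 8 were higher in SN3595 (Acly, Acss2, Acsl4, Elovl1, Elovl5, Scd2, Fads1 and Pcyt1a) and 2 lower (Thrsp and Chpt1), and edgeR without the filter on low counts called Acss2. Acss2 was higher in SN3595 in 3 of 3 conditions, by 1.07 on the log2 scale (SE 0.12, adjusted p = 0.1). Chpt1 was lower in SN3595 in 3 of 3 conditions (log2 fold change -1.07, SE 0.15, adjusted p = 0.127), and Scd2 higher in 3 of 3, by 0.81 (SE 0.20, adjusted p = 0.172). With 1 library of each line in a condition, a difference in response between the lines cannot be tested. No gene changed by 0.5 or more on the log2 scale in opposite directions in the lines.

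Groups that did not overlap were common in these data. In 2D FNHCS against 3D FNHCS, both libraries were higher for 5 of the 38 genes and lower for 24, against 30.8% and 32.9% of all genes. In 2D FBS against 2D FNHCS the counts were 10 and 17, against 28.8% and 31% of all genes. In 2D FBS against 3D FNHCS they were 6 and 25, against 36.3% and 38.7%.

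The rest of the synthesis pathway was read from a further 68 genes, of which 59 passed the filter. In 2D FNHCS against 3D FNHCS 6 rose and 4 fell, in 2D FBS against 2D FNHCS 8 rose and 7 fell, and in 2D FBS against 3D FNHCS 12 rose and 14 fell, with medians of 0.03, 0.07 and 0.12 on the log2 scale. The shares called were 16.9%, 25.4% and 44.1%, against 18.4%, 10.6% and 40.5% of all genes, so the first and last were near the background. Acss3, a mitochondrial relative of Acss2 that activates short-chain acids, fell in all 3 comparisons, with 23.8 and 20 CPM in 3D FNHCS, then 4.69 and 3.19 in 2D FNHCS and then 0.402 and 0.633 in 2D FBS (SE 0.39, adjusted p = 7.90e-04 between the end points). Slc44a4, a choline transporter family member, had 46.5 and 52.3 CPM in 3D FNHCS, then 11.2 and 9.93 in 2D FNHCS and then 17.7 and 19.5 in 2D FBS and fell by 2.23 on the log2 scale at the flat step (SE 0.18, adjusted p = 0.00362). Scap, the escort of SREBP proteins, rose at the flat step from 19.5 and 25.2 to 54 and 65.8 CPM (SE 0.20, adjusted p = 0.00997), while Insig1, which retains Scap in the endoplasmic reticulum and is itself an SREBP target, was not called, with 198 and 232 CPM in 3D FNHCS, then 70.7 and 194 in 2D FNHCS and then 112 and 165 in 2D FBS.

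Some genes of the same reactions rose in serum medium. Gpat3 (listed as Agpat9), which like Gpam acylates glycerol 3-phosphate, went from 3.08 and 1.79 CPM (3D FNHCS) and 4.17 and 3.5 CPM (2D FNHCS) to 66.7 and 35 in 2D FBS (log2 fold change 3.73, SE 0.42, adjusted p = 0.0106 at the serum step). Hacd1 (listed as Ptpla), a dehydratase of chain elongation, rose from 40.8 and 50.4 to 318 and 216 CPM at the same step (SE 0.25, adjusted p = 0.00901). Lpcat1, which remodels phosphatidylcholine into its surfactant form in AT2 cells, fell there, with 619.8 and 833 CPM in 3D FNHCS, then 805 and 1444 in 2D FNHCS and then 196 and 261 in 2D FBS (log2 fold change -2.30, SE 0.36, adjusted p = 0.0197).

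Of 36 genes of fatty acid oxidation, 35 were tested. In 2D FNHCS against 3D FNHCS 4 rose and 3 fell, in 2D FBS against 2D FNHCS 4 rose and 2 fell, and in 2D FBS against 3D FNHCS 11 rose and 5 fell. The shares called were 20%, 17.1% and 45.7%, against 18.4%, 10.6% and 40.5% of all genes, and the first was near the background. By direction, 11.4% rose and 5.71% fell at the serum step, against 5.85% and 4.77% of all genes. Between the end points 31.4% rose and 14.3% fell, against 19.9% and 20.5%. Acad11, an acyl-CoA dehydrogenase, rose from 11.5 and 14.3 CPM in 3D FNHCS to 32.7 and 42.8 in 2D FNHCS (SE 0.21, adjusted p = 0.00967), and Slc25a20, the mitochondrial carnitine carrier, from 42.6 and 41 to 91.2 and 82.8 (SE 0.15, adjusted p = 0.00995). Ech1, an auxiliary enzyme of oxidation, was lowest in 2D FNHCS, with 63.8 and 57.4 CPM in 3D FNHCS, then 29.2 and 32.2 in 2D FNHCS and then 71.4 and 77.2 in 2D FBS. Hadh, a dehydrogenase of the oxidation cycle, and Ppargc1a, a coactivator of mitochondrial genes, fell at the serum step, by 1.37 and 1.54 on the log2 scale (adjusted p = 0.012 and 0.0192).

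Of 33 genes of lipid uptake and storage, 22 were tested, with 2 rises and 6 falls in 2D FNHCS against 3D FNHCS, 3 rises and no fall in 2D FBS against 2D FNHCS, and 3 rises and 11 falls in 2D FBS against 3D FNHCS. The shares called were 36.4%, 13.6% and 63.6%, against 18.4%, 10.6% and 40.5% of all genes. At the serum step all of the share was rises, 13.6% against 5.85% of all genes, which rests on 3 genes. Falls made 27.3% at the flat step and 50% between the end points, against 9.77% and 20.5%. Rises made 9.09% and 13.6% there, against 8.63% and 19.9%. Fabp3, a relative of Fabp5, rose as Fabp5 fell, with 0.317 and 0.34 CPM in 3D FNHCS, then 8.8 and 23.7 in 2D FNHCS and then 45.7 and 53.2 in 2D FBS (log2 fold change 7.22, SE 0.60, adjusted p = 0.00107 between the end points). The log2 ratio of Fabp3 to Fabp5 counts was -10.93 and -11.65 in 3D FNHCS, against 1.64 and 3.85 in 2D FBS. Hilpda, a lipid droplet protein that restrains lipolysis, and Cideb, a droplet protein, fell at the flat step by 1.90 and 2.89 on the log2 scale (adjusted p = 0.0044 and 0.00855). Pnpla2, the main triacylglycerol lipase of lipid droplets, rose at the serum step from 70 and 77.4 to 244 and 194 CPM (SE 0.19, adjusted p = 0.0114), as did Vldlr, a lipoprotein receptor, from 41.1 and 33.7 to 73.6 and 102 (SE 0.22, adjusted p = 0.0248). Mgll, a monoacylglycerol lipase, was called higher there too, with 5 counts over both 2D FNHCS libraries and 94 over both 2D FBS libraries, a ratio of 17.0 with an exact 95% interval of 7.05 to 53.7 for counting error.

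These counts were also lower in most fits that left out a library. At the flat step, the fit without the 3D FNHCS library of SN3593 called 1 of the further synthesis genes and 0 of the oxidation genes, and the fit without that of SN3595 called 3 of the uptake and storage genes. Without the 2D FBS library of SN3593 the serum step called 1, 0 and 0 genes of the 3 lists. Among the genes named from these lists, the flat-step calls of Slc44a4, Hilpda, Fabp3 and Cideb and the serum-step call of Hacd1 held with each library left out. Those of Acss3, Scap and Acad11 at the flat step were lost without the 3D FNHCS library of SN3593 (highest adjusted p = 0.0605), and those of Slc25a20 and Ech1 without either 3D FNHCS library (highest adjusted p = 0.0749). At the serum step Acss3, Gpat3 and Pnpla2 were lost without the 2D FBS library of SN3593 (highest adjusted p = 0.075), and Ech1, Hadh, Ppargc1a and Lpcat1 without either 2D FBS library (highest adjusted p = 0.124), Ppargc1a also without the 2D FNHCS library of SN3593. Vldlr and Mgll held in 1 of 6 such fits each.

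**Figure D4:**
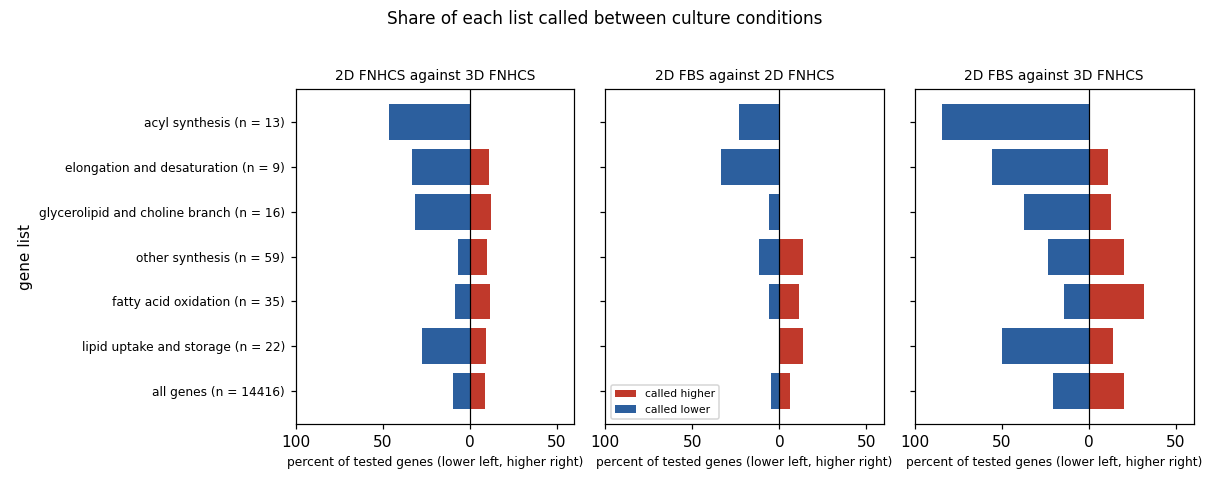
Bars give the percent of tested genes called lower (left of 0) and higher (right of 0) in each list, in the 3 comparisons of conditions, with all 14416 tested genes in the bottom row. The 13 acyl synthesis genes reach 84.6% called lower in 2D FBS against 3D FNHCS, where all genes stand at 20.5%.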

How the data were processed

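PolyA RNA of 6 libraries, 1 for each of 2 lines in 3 conditions, was sequenced. The deposited values are expected counts per gene, which the authors made with RSEM 1.3.1 and Bowtie 1.2.3 on build mm9, per the submitters' processing notes. The annotation is not given in the sources used, nor is the use of strand. All columns were matched to samples by their names, with 0 columns without a sample. RSEM divides reads of close relatives (Scd1 and Scd2, the Acsl, Elovl and Fads genes) by a model, and reads of overlapping genes may be mixed.

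Expected counts were rounded to whole numbers, filtered with filterByExpr (14416 genes kept, 8808 left out) and scaled by TMM factors. A quasi-likelihood model with 1 term per condition was fitted to all 6 libraries (edgeR 4.0.16, limma 3.58.1, R 4.3.3), leaving 3 residual degrees of freedom. The p-values were adjusted over all genes tested by Benjamini-Hochberg, with calls at 0.05. The SE was taken as the size of the log2 fold change over the root of the F statistic. Differences and ratios within a line used log2 CPM with a prior count of 2. The lines were compared in a model with condition as a further term. The fit was run on simulated counts with the same spread setting for every gene and no effect of line. This checked the code and not the error rate in these libraries. A count of 0 allows 3 counts, which is 0.0704 to 0.0864 CPM, and intervals and floors cover counting error only.

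Each line gave a library to every condition, so the replicate numbers pair the samples. Deviations from the condition means correlated at 0.422, 0.245 and 0.379 between libraries of the same line. The unpaired fit was the main one and the line was added as a block in an alternative. Further alternatives were DESeq2 1.42.0, limma-voom, other scalings, no filter, the 4 libraries compared only, and each library left out in turn. Replicates correlated at 0.965 to 0.979 and differed by more than sampling noise.

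The 38 genes and the other lists were chosen with earlier results of these data known. All 199 entries of the other lists matched a row, 10 of them by an older symbol. For each comparison and step, the 4 called genes with the lowest adjusted p were given with all library values. Of the other synthesis, oxidation and storage lists, the 3 called genes with the lowest adjusted p in each comparison were named, plus Lpcat1 and Insig1. The alternatives for these genes and lists were added after the data were seen.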

Additional observations from a re-analysis of the deposited data

How the results depend on the processing

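The values below count genes called at an adjusted p of 0.05. Of all genes, 2652 were called in 2D FNHCS against 3D FNHCS, and 3988 with DESeq2, 4181 with the line as a replicate block and 565 to 1869 with 1 library left out. In 2D FBS against 2D FNHCS the count of 1531 became 2966 with DESeq2, 2700 with the block, 828 with only the 4 libraries compared and 62 to 1292 with 1 library left out. In 2D FBS against 3D FNHCS the count of 5836 ranged from 3281 to 6000 with 1 library left out. Of the 38 genes, the 17 called in 2D FNHCS against 3D FNHCS became 20 with the block and 6 to 13 with 1 library left out. The 7 of 2D FBS against 2D FNHCS became 13 with DESeq2 (4 higher and 9 lower), 15 with the block (3 higher and 12 lower), 4 with only the 4 libraries compared and 0 to 4 with 1 library left out. The 25 of 2D FBS against 3D FNHCS became 28 with the block and 18 to 25 with 1 library left out. Between the lines the count of 0 became 10 with DESeq2 and 1 without the filter on low counts. The block changed no other call of the 38 genes than those named above. DESeq2 also called Acss2, Acsl3, Scd1 and Fads2 lower at the flat step. At the serum step it added Mlxipl and Pcyt1a as lower and Fads3, Agpat3, Pcyt1b and Plin2 as higher. A fit with 1 library left out keeps a lone library in a condition, which is assumed to vary like the others. The cause of the other changes was not tested.

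With 2 libraries in a condition, calls at the flat and serum steps were often lost when 1 library was left out. Fewer residual degrees of freedom then remain, which cannot be told apart from a dependence on that library. Low counts limit Thrsp, Mlxipl and Acacb in both flat conditions, Elovl6 in 2D FNHCS (29.6 and 28.7 counts) and Pcyt1b in 3D FNHCS. Of the genes of the other lists, they limit Fabp3 in 3D FNHCS, Acss3 in 2D FBS and Mgll.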
